A study of Mus musculus with 6 samples.

Results

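Calcineurin and PPM phosphatases were examined as 9 genes, chosen by gene symbol, of the 14477 genes with RNA-Seq values in mouse hippocampus. The calcineurin genes were *Ppp3ca*, *Ppp3cb*, and *Ppp3r1*, and the PPM genes were *Ppm1a*, *Ppm1b*, *Ppm1e*, *Ppm1f*, *Ppm1h*, and *Ppm1l*. All 9 had values in every mouse. The study compared hippocampi of 3 untreated Phf21bΔ4/Δ4 mice (replicates 2, 3, and 6) with those of 3 untreated Phf21b+/+ mice (replicates 5, 7, and 8), with 1 library of total RNA per mouse. The Δ4 allele is a CRISPR/Cas9 deletion in exon 4 of *Phf21b*, an epigenetic reader gene, and is carried in every cell of the body on a C57BL/6J background. The study used young adult littermates of both sexes, and the sex of each sequenced mouse is not given in the labels. The allele lowers *Phf21b* and does not remove its transcript.

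Calcineurin is the calcium- and calmodulin-dependent serine/threonine phosphatase of neurons. A catalytic A subunit carries the active site and the calmodulin-binding region, and the B subunit binds calcium. In hippocampus it is known for opposing kinases at the synapse, where it takes part in long-term depression and in the dephosphorylation of transcription factors such as NFAT and of the CREB coactivators CRTC. PPM phosphatases form a separate, metal-dependent family, most of whose members work as single chains without regulatory subunits. Among them, *Ppm1e* and *Ppm1f* encode the POPX phosphatases, which dephosphorylate calcium/calmodulin-dependent kinases and the p21-activated kinases.

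Because the study asked how PHF21B acts through chromatin and CREB, the 250 bases before the annotated start were read for the cyclic AMP response element to which CREB binds (TGACGTCA, which reads the same on both strands). RefSeq windows of GRCm38.p6 were at hand for 7 of the 9 genes, with 3 alternative starts for *Ppm1b*, and the entries for *Ppm1l* and *Ppp3ca* were missing. The whole element stood in 1 of the 7 genes, *Ppm1a*, beginning 136 bases before the start. In all 32851 windows of this length in the table, 1.55% held it. *Ppm1e* and *Ppm1a* are shown because *Ppm1e* was the gene that differed most between the genotypes, while *Ppm1a* is the gene with the element. The *Ppm1e* window lies on the minus strand at chr11:87358995-87359244, and 29 of its bases fall in the first exon as GENCODE draws it. The *Ppm1a* window lies on the plus strand at chr12:72760961-72761210, within introns of transcripts that GENCODE starts farther upstream and in no exon. Capitals mark TGACGTCA, and *Ppm1e* has none.
Ppm1e: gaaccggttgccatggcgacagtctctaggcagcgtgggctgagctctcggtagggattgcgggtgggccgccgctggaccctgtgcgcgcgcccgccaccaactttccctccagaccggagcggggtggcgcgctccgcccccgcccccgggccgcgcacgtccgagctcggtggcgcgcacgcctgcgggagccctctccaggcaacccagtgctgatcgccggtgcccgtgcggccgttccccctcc
Ppm1a: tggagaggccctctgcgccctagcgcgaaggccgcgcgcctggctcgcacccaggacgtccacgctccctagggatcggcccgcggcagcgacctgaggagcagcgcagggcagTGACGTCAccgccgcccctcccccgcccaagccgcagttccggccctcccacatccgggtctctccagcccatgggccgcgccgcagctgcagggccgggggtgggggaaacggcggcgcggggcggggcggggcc
The shorter stretch TGACG, or CGTCA on the other strand, stood in windows of 3 of the 7 genes (*Ppm1a*, *Ppm1b*, and *Ppp3r1*) and in 17.8% of all windows. The 7 genes had 9 windows, and of the 3 windows of *Ppm1b* only 1 held this stretch. The window of *Ppm1e* held 32 CG pairs and that of *Ppm1a* 31, against a median of 6.0 over all windows. The other windows held 29 (*Ppp3r1*), 12 (*Ppm1h*), 10 (*Ppp3cb*), 4 (*Ppm1f*), and 6, 17, and 2 (*Ppm1b*). A match describes letters only, and no binding was measured here.

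Values are CPM, read counts scaled to the library. Each library held between 20495605 and 24881257 reads in the genes of the table, and the 9 genes had between 1405 reads (*Ppm1b*) and 78788 reads (*Ppp3ca*) in a mouse. *Phf21b* itself was at 2.15, 3.57, and 3.87 CPM in Phf21bΔ4/Δ4 replicates 2, 3, and 6 and at 6.50, 5.23, and 6.47 CPM in Phf21b+/+ replicates 5, 7, and 8 (log2 fold change -0.96, adjusted p = 0.14, limma). Forebrain neuron markers were abundant in all 6 libraries, with a sum over 5 excitatory neuron genes of 2711 to 3180 CPM in mutants and 2090 to 2899 CPM in wild types. The 6 pan-neuronal genes were all higher in mutants (0 called, sums of 6309 to 7848 CPM against 4763 to 6080 CPM), and so were the 7 GABAergic interneuron genes (1 called, 688 to 830.2 CPM against 468 to 531 CPM). Marker sums of CA1, dentate granule cells, medial habenula, and thalamus stood apart between the genotypes, and those of CA2 and CA3 overlapped. The 6 CA2 markers (2 higher and 4 lower, 0 called) summed to 271 to 389 CPM in mutants and 322 to 355 CPM in wild types. The 7 CA3 markers (1 higher and 6 lower, 0 called) summed to 147 to 327 CPM in mutants and 262 to 334 CPM in wild types. The 7 CA1 pyramidal markers listed were all higher in Phf21bΔ4/Δ4 mice (3 called by the rule given below), with sums of 923 to 1009 CPM against 340.1 to 424 CPM. The 8 dentate granule markers were all lower (1 called), with sums of 180.0, 168, and 599 CPM in Phf21bΔ4/Δ4 replicates 2, 3, and 6 against 651 to 754 CPM in Phf21b+/+ mice. The 10 medial habenula markers were all lower too (9 called), at 47.5 to 91.3 CPM against 285 to 429 CPM, and 3 of them had at most 3 reads in each Phf21bΔ4/Δ4 library. The 8 thalamus markers were likewise all lower (2 called, 95.3 to 168 CPM against 353 to 537 CPM). Of the 6 choroid plexus markers, the sum reached 15596 CPM in Phf21b+/+ replicate 7 and 960 CPM in replicate 8, and it was between 22.4 and 80.0 CPM in the other mice. *Xist* was read in every library (86.9 to 216 CPM) and none of 4 Y-linked genes was listed, so that no library read as that of a male. In bulk tissue, fewer cells of a type, less RNA per cell, and a different share of neighboring tissue in the sample cannot be told apart. The part of these marker differences in the values below was not tested.

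**Figure D1:**
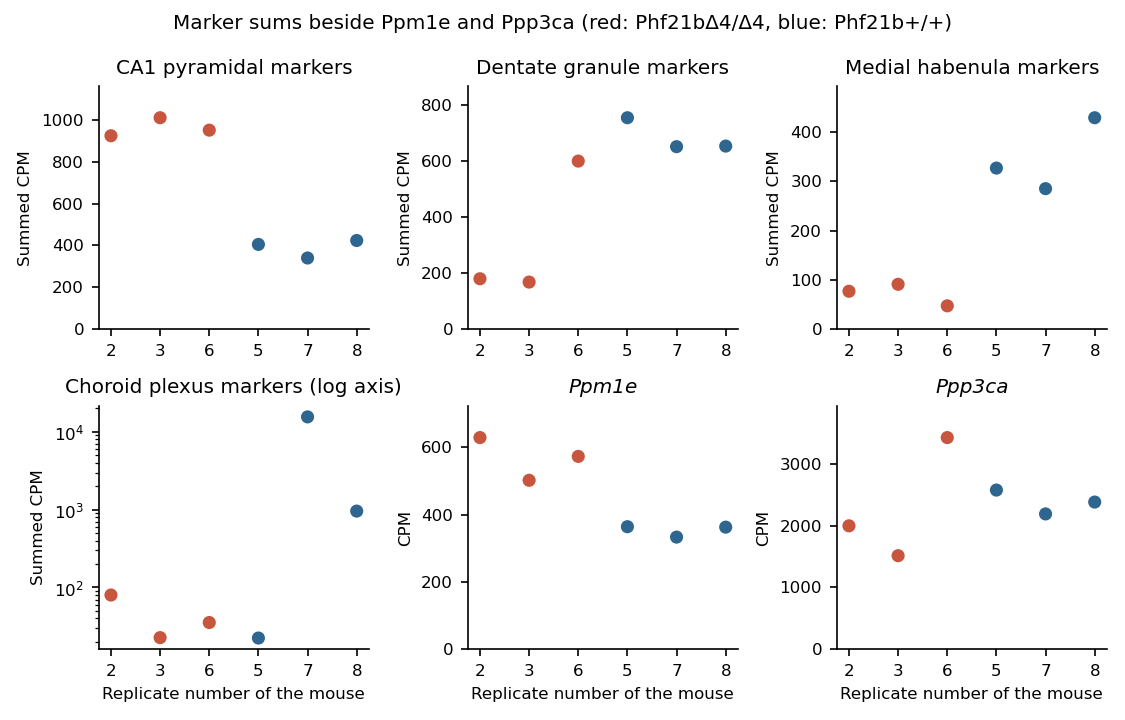
Summed CPM of marker genes and CPM of *Ppm1e* and *Ppp3ca* in each mouse, with 1 point per mouse, Phf21bΔ4/Δ4 in red and Phf21b+/+ in blue; the choroid plexus axis is logarithmic. CA1 sums are at least 923 CPM in the mutants and at most 424 CPM in the wild types, and dentate sums of mutant replicates 2 and 3 (180.0 and 168 CPM) lie far below that of mutant replicate 6 (599 CPM).

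Among the phosphatase genes, *Ppm1e* rose in Phf21bΔ4/Δ4 hippocampi, and no other member passed the thresholds. A gene was called at an adjusted p (FDR) under 0.1 and a fold change above 1.3, by limma on the log2 CPM values with adjustment across every listed gene. By this rule 1 of the 9 members was called, higher in the mutants, and 1.22% of all genes were called (0.553% higher and 0.663% lower in mutants). The log2 fold change was above 0 in 7 of the 9 (47.6% of all genes), and its median was 0.21 over the members and -0.02 over all genes. The mean log2 CPM was 6 or more for every member. Among the 3826 genes at that level, a limit chosen after the values were seen, the median was 0.11, 69.4% lay above 0, and 1.36% were called. In 4 members (*Ppm1b*, *Ppm1e*, *Ppm1h*, and *Ppp3cb*) each Phf21bΔ4/Δ4 mouse lay above each Phf21b+/+ mouse, and in none did all lie below. After quantile normalization this held for *Ppm1e* alone. The former held for 15.0% of all genes and for 30.6% of these more abundant genes. An exact permutation test of 3 mice against 3 gives p = 0.1 for such a gene, the smallest it can give.

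**Figure D2:**
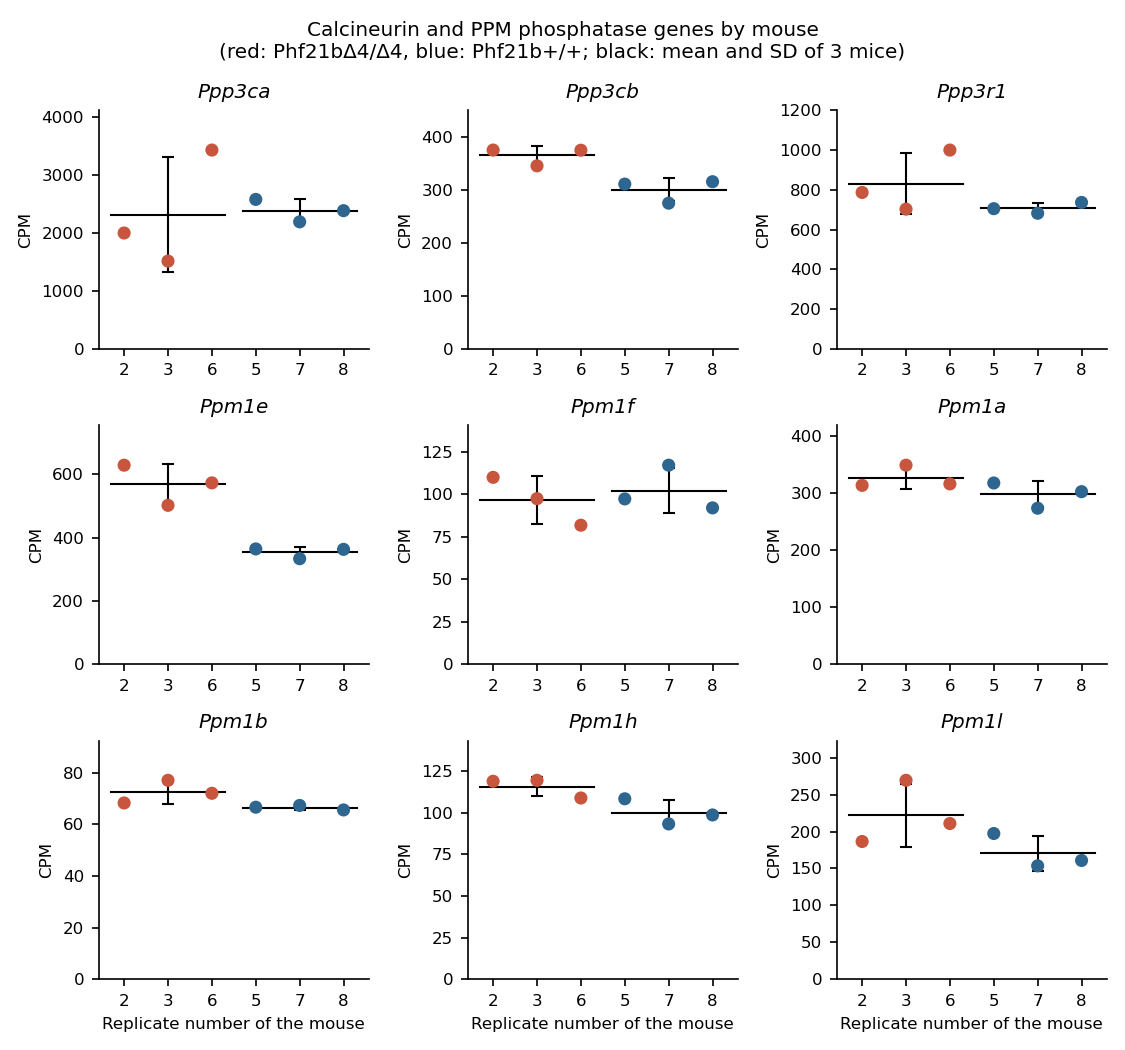
CPM of the 9 genes in each mouse, with 1 point per mouse, the replicate number on the x axis, and black lines for the mean and SD of 3 mice. *Ppm1e* shows the clearest separation, with mutants between 502 and 629 CPM and wild types between 333 and 364 CPM, while *Ppp3ca* ranges from 1513 to 3427 CPM within the mutants.

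*Ppp3ca* (ENSMUSG00000028161.17, GRCm38 chr3:136670124-136937727, plus strand), the calcineurin A alpha gene and the main catalytic subunit of forebrain neurons, had 1997, 1513, and 3427 CPM in Phf21bΔ4/Δ4 replicates 2, 3, and 6. In Phf21b+/+ replicates 5, 7, and 8 it had 2576, 2190, and 2382 CPM. Mutant replicate 6 thus held the highest value of all 6 mice and mutant replicates 2 and 3 the lowest, so that the wild types lay between them. The log2 fold change was -0.13 (95% interval -0.83 to 0.58, adjusted p = 0.80, limma). The SD of log2 CPM was 0.60 among the mutants, larger than in 93.7% of genes whose mean log2 CPM was 1 or more, and 0.12 among the wild types. Without mutant replicate 3 the log2 fold change was 0.14, and without mutant replicate 6 it was -0.45. The mutants low in *Ppp3ca* were also those with dentate granule sums of 180.0 and 168 CPM. Mutant replicate 6, highest in *Ppp3ca*, had a dentate sum (599 CPM) below each wild type (651 to 754 CPM). The part of dentate content in the values of *Ppp3ca* was not tested.

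*Ppp3cb*, the calcineurin A beta gene, had 375, 345, and 374 CPM in Phf21bΔ4/Δ4 replicates 2, 3, and 6 and 310.4, 274, and 315 CPM in Phf21b+/+ replicates 5, 7, and 8. Each mutant lay above each wild type. The log2 fold change of 0.28 (95% interval 0.07 to 0.49) did not pass the threshold (adjusted p = 0.16, limma), and the value lay between 0.22 and 0.32 when single mice were dropped and was 0.08 after quantile normalization. Since *Ppp3ca* spread much more widely than *Ppp3cb* among the mutants, their ratio per kb of exon also varied. It was 4.71, 3.87, and 8.08 in Phf21bΔ4/Δ4 replicates 2, 3, and 6, and between 6.68 and 7.32 in Phf21b+/+ mice. The genotypes overlapped in this ratio (difference of log2 ratios -0.41, exact permutation test, 2-sided, p = 0.4). The difference was -0.18 without mutant replicate 3 and -0.72 without mutant replicate 6.

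Summed over *Ppp3ca*, *Ppp3cb*, and the third catalytic gene *Ppp3cc*, catalytic subunit transcripts came to 251, 199, and 395 CPM per kb of exon in Phf21bΔ4/Δ4 replicates 2, 3, and 6. The sums were 301, 259, and 282 CPM per kb in Phf21b+/+ replicates 5, 7, and 8. The mutants spanned the whole range of the wild types (difference of mean log2 sums -0.05, exact permutation test, 2-sided, p = 0.9). *Ppp3ca* made up 79.6%, 76.0%, and 87.0% of the sum in mutant replicates 2, 3, and 6 and between 84.5% and 85.6% in wild types. *Ppp3cc*, known best from testis, made up between 2.27% and 4.37% and had a log2 fold change of 0.09 (adjusted p = 0.46, limma).

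**Figure D3:**
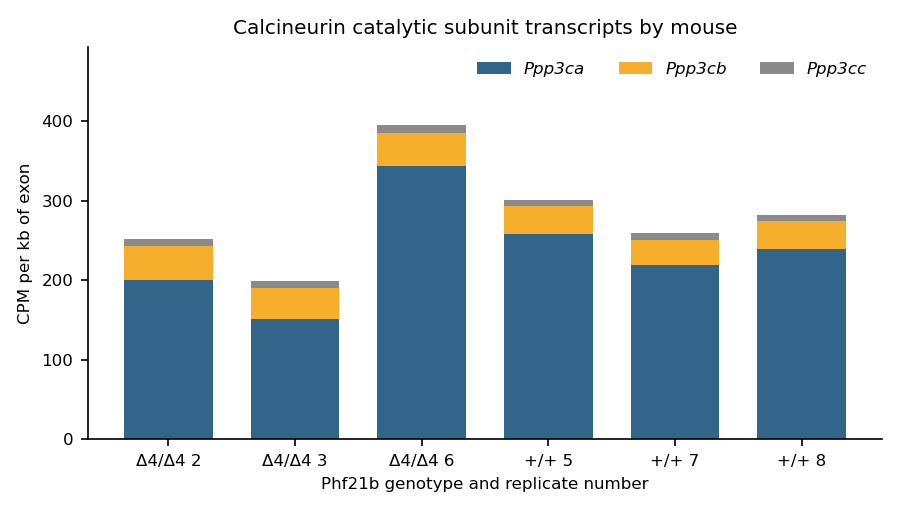
Bars stack the CPM per kb of exon of the 3 calcineurin catalytic genes for each mouse. The sums run from 199 to 395 in the mutants and from 259 to 301 in the wild types, and most of each bar is *Ppp3ca*.

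*Ppp3r1*, the calcium-binding B subunit shared by both catalytic subunits in brain, had 787, 703, and 1000.3 CPM in Phf21bΔ4/Δ4 replicates 2, 3, and 6. In Phf21b+/+ replicates 5, 7, and 8 it had 705, 682, and 737 CPM. Mutant replicate 6 was highest, as for *Ppp3ca*, and mutant replicate 3 lay within the wild-type range. The log2 fold change was 0.21 (95% interval -0.13 to 0.56, adjusted p = 0.37, limma) and was 0.07 without mutant replicate 6. Exons of *Wdr92* on the same strand overlap 14.3% of the exonic length of *Ppp3r1*, and reads there could not be assigned to either gene with certainty.

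*Ppm1e* (ENSMUSG00000046442.4, GRCm38 chr11:87226906-87359023, minus strand), a POPX phosphatase enriched in neurons and largely nuclear, had 629, 502, and 573 CPM in Phf21bΔ4/Δ4 replicates 2, 3, and 6. It had 364, 333, and 363 CPM in Phf21b+/+ replicates 5, 7, and 8. The lowest mutant lay well above the highest wild type. Means were 568 ± 63.7 CPM in mutants and 353 ± 17.5 CPM in wild types (SD, n = 3 each). On the log2 scale the mutants were 0.68 higher (95% interval 0.43 to 0.93, adjusted p = 0.072, limma). When single mice were dropped the log2 fold change lay between 0.60 and 0.77, higher in Phf21bΔ4/Δ4 mice each time. The adjusted p then ranged from 0.030 to 0.28, and it passed the threshold in 2 of the 6 fits, those without mutant replicate 3 (0.096) and without mutant replicate 6 (0.030). It lost the call without mutant replicate 2 (0.22) and without wild-type replicate 5 (0.12), 7 (0.24), or 8 (0.28). After quantile normalization the log2 fold change was 0.44 and the adjusted p 0.13. With mutant replicate 6 and wild-type replicate 7 both left out, a choice made after their marker sums were seen, the log2 fold change was 0.63 (adjusted p = 0.054, limma). The CA1, pan-neuronal, and interneuron marker sums given above were also higher in each mutant than in each wild type, those of habenula and thalamus were lower, and their part in the value of *Ppm1e* was not tested.

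**Figure D4:**
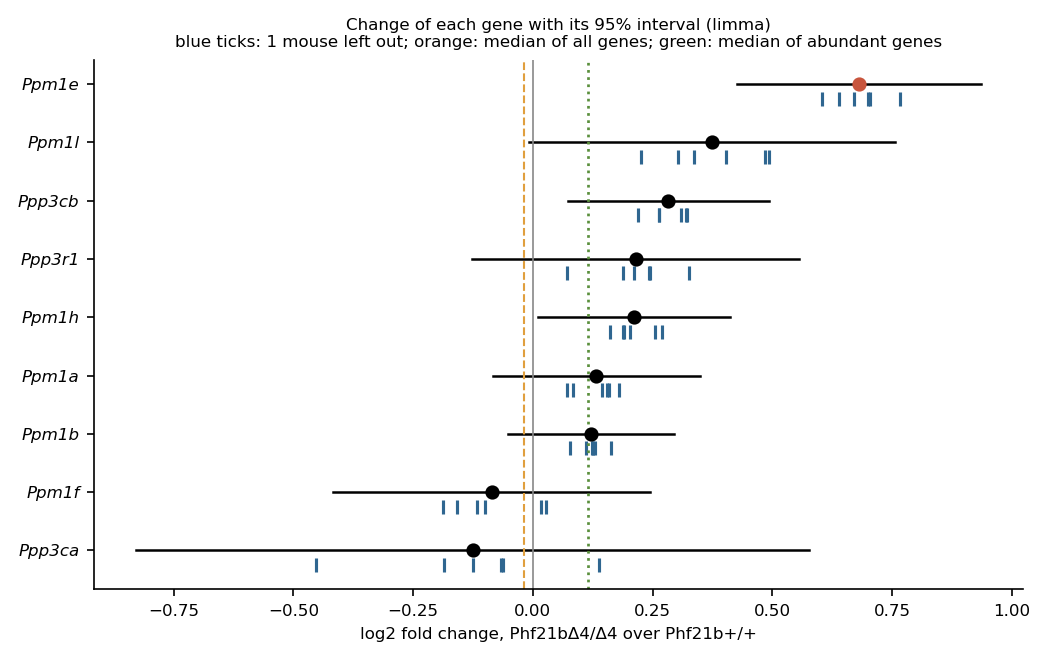
Log2 fold change of each gene with its 95% interval from limma (black, with the called gene in red), values with 1 mouse left out (blue ticks), and medians of all genes (-0.02, orange) and of genes whose mean log2 CPM was 6 or more (0.11, green). *Ppm1e* lies apart at 0.68, and the widest interval is that of *Ppp3ca*, from -0.83 to 0.58.

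*Ppm1e* was also compared with its relatives within each mouse. The log2 ratio of *Ppm1e* to *Ppm1f* was on average 0.77 higher in Phf21bΔ4/Δ4 mice, and 0.50 higher with mutant replicate 6 and wild-type replicate 7 both left out. Per kb of exon, *Ppm1e* stood at 4.20, 3.79, and 5.15 times *Ppm1f* in mutant replicates 2, 3, and 6 and at 2.75, 2.09, and 2.90 times in wild-type replicates 5, 7, and 8. Ratios of *Ppm1e* to each of the 8 other members were compared, and the genotypes did not overlap for 7 of them (exact permutation test, 2-sided, p = 0.1, the smallest possible, and 0.114 after Benjamini-Hochberg adjustment over the 8). The exception was *Ppm1l*, for which the difference of log2 ratios was 0.31 (exact p = 0.3, adjusted 0.3). *Ppm1e* had been singled out by earlier results of these data, and it separated the genotypes by itself. These ratios thus largely restate its difference and are not independent evidence. The share of all genes whose ratio to *Ppm1e* separates the genotypes is not given.

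The genes nearest to *Ppm1e* over the 6 mice were *Zdhhc23*, *Camkv*, *Rap2b*, *Lrrn2*, and *Adam23*. Nearness was taken as the root mean square difference of log2 CPM after each gene was centred on its own mean, among 12965 other genes whose mean log2 CPM was 1 or more. It was 0.066 for *Zdhhc23*, a palmitoyltransferase gene, and 0.066 for *Camkv*, which encodes a kinase-like protein that binds calmodulin. For *Rap2b*, a small GTPase gene, it was 0.067, for *Lrrn2* 0.082, and for *Adam23* 0.083. These 5 genes had log2 fold changes from 0.58 to 0.77 and adjusted p-values from 0.067 to 0.099 (limma), a description only, since the search picks genes that share the separation of the genotypes.

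*Ppm1f*, the broadly expressed POPX paralog, had 110, 97.4, and 81.7 CPM in Phf21bΔ4/Δ4 replicates 2, 3, and 6 and 97.2, 117, and 92.0 CPM in Phf21b+/+ replicates 5, 7, and 8. The genotypes overlapped throughout. The log2 fold change was -0.09 (95% interval -0.42 to 0.25, adjusted p = 0.71, limma), and its sign turned without mutant replicate 6 (0.03) and without wild-type replicate 7 (0.02). The highest value was that of wild-type replicate 7, the library with the most choroid plexus signal.

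*Ppm1a* and *Ppm1b* encode the closely related PP2C alpha and beta, which act on stress-activated kinase pathways. *Ppm1a* had 313, 348, and 316 CPM in Phf21bΔ4/Δ4 replicates 2, 3, and 6 and 317, 273, and 302 CPM in Phf21b+/+ replicates 5, 7, and 8, with overlap between the genotypes. *Ppm1b* had 68.3, 77.1, and 72.1 CPM in mutants and 66.7, 67.4, and 65.6 CPM in wild types in the same order, without overlap but with only a narrow gap between mutant replicate 2 and wild-type replicate 7. Log2 fold changes were 0.13 (95% interval -0.08 to 0.35, adjusted p = 0.39, limma) for *Ppm1a* and 0.12 (95% interval -0.05 to 0.30, adjusted p = 0.33, limma) for *Ppm1b*, both close to the median of the abundant genes.

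*Ppm1h*, whose product removes the phosphate that LRRK2 places on Rab GTPases, had 119, 120, and 109 CPM in Phf21bΔ4/Δ4 replicates 2, 3, and 6. It had 108, 93.4, and 98.7 CPM in Phf21b+/+ replicates 5, 7, and 8. Mutant replicate 6 (108.961 CPM) lay barely above wild-type replicate 5 (108.476 CPM). The log2 fold change was 0.21 (95% interval 0.01 to 0.41, adjusted p = 0.20, limma). *Ppm1l* encodes an endoplasmic reticulum phosphatase of stress kinases and of a ceramide transfer protein. It had 187, 270, and 211 CPM in mutant replicates 2, 3, and 6 and 197, 154, and 161 CPM in wild-type replicates 5, 7, and 8. Its log2 fold change of 0.37 was the largest after that of *Ppm1e*, but mutant replicate 2 lay below wild-type replicate 5 (95% interval -0.01 to 0.76, adjusted p = 0.22, limma). Without mutant replicate 3 it was 0.23, below the values of *Ppp3cb* (0.32) and *Ppp3r1* (0.33) in the same fit.

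The order of the mice thus differed between members. *Ppp3ca* and *Ppp3r1* were highest in mutant replicate 6, *Ppm1e* and *Ppp3cb* in mutant replicate 2, and *Ppm1a*, *Ppm1b*, *Ppm1h*, and *Ppm1l* in mutant replicate 3. Wild-type replicate 7 was the lowest of the 6 mice for *Ppm1a*, *Ppm1e*, *Ppm1h*, *Ppm1l*, *Ppp3cb*, and *Ppp3r1*. The SD of log2 CPM among the mutants ran from 0.07 for *Ppp3cb* to 0.60 for *Ppp3ca*, and among the wild types from 0.02 for *Ppm1b* to 0.19 for *Ppm1l*.

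Per kb of exon, the calcineurin B gene *Ppp3r1* and the A gene *Ppp3ca* were the most abundant, with means over the 6 mice of 238 and 235 CPM per kb. Their ranges overlapped, and *Ppp3r1* was the higher of the pair in 2 of the 6 mice. *Ppm1e* followed at 68.7 CPM per kb, then *Ppp3cb* at 37.7 and *Ppm1a* at 24.3, and each of these steps held in 6 of 6 mice. The range of *Ppm1f* (20.2) overlapped those of *Ppm1a* and *Ppm1l* (18.7). *Ppm1b* (13.2) lay below *Ppm1l* in each mouse although their ranges touched, and *Ppm1h* (10.6) was lowest in each mouse. *Ppm1e* was thus the most abundant of the 6 PPM members in every mouse.

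Other genes of these pathways gave few calls, and the lists were written with earlier results of these data known. Of 15 further PPM family and calcineurin subunit genes, 12 were listed and 0 were called by limma, 3 having an unadjusted p under 0.05 (23.6% of all genes). The voom test on recovered reads called 0 of them as well. The smallest p belonged to *Pdp1*, which encodes the pyruvate dehydrogenase phosphatase, at 98.4 ± 8.59 CPM (SD, n = 3) in Phf21bΔ4/Δ4 mice against 155 ± 35.5 CPM (SD, n = 3) in Phf21b+/+ mice (log2 fold change -0.63, adjusted p = 0.14, limma). *Phlpp1*, an Akt phosphatase gene, had a log2 fold change of 0.27 (adjusted p = 0.18, limma), and *Ppm1g*, a nuclear phosphatase gene, one of 0.17 (adjusted p = 0.20, limma).

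Of 11 calcineurin activators, anchors, and inhibitors, 1 was called and 3 had an unadjusted p under 0.05 (1.22% and 23.6% of all genes). *Akap5*, the scaffold that anchors calcineurin and protein kinase A at the postsynaptic membrane, had 161, 203, and 148 CPM in Phf21bΔ4/Δ4 replicates 2, 3, and 6 and 92.2, 88.3, and 98.2 CPM in Phf21b+/+ replicates 5, 7, and 8. Each mutant lay above each wild type, and *Akap5* rose with a log2 fold change of 0.86 ± 0.13 (SE, adjusted p = 0.067, limma). The others of the 3 were *Fkbp1a*, which encodes the immunophilin through which FK506 inhibits calcineurin (log2 fold change 0.52, adjusted p = 0.12, limma), and *Chp1*, a calcineurin B-like gene (0.25, adjusted p = 0.16, limma), in both of which each mutant lay above each wild type. The inhibitor genes *Rcan1*, *Rcan2*, and *Rcan3* had log2 fold changes of -0.12, -0.16, and -0.11 (adjusted p = 0.64, 0.52, and 0.68, limma). In *Ppia*, of the same list, each mutant lay below each wild type (log2 fold change -0.15, adjusted p = 0.26, limma). Over the 11 genes, the genotypes did not overlap in 3 that were higher and 1 that was lower in mutants. Higher in this way were 15.0% of all genes and 30.6% of the more abundant genes, and lower were 16.0% of all genes. *Fkbp1a*, *Chp1*, *Ppia*, and the *Rcan* genes were named after their values were seen.

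Of 15 calcineurin substrates, 14 were listed and 0 were called by limma (1.22% of all genes) or by voom. An unadjusted p under 0.05 was found for 4 (23.6% of all genes). Log2 fold changes were above 0 in 7 (47.6% of all genes) and below 0 in 7. *Dnm1*, the dynamin of synaptic vesicle endocytosis, was at 1105 ± 149 CPM in mutants and 711 ± 125 CPM in wild types (SD, n = 3 each, adjusted p = 0.14, limma). *Nfatc3*, a calcineurin-activated transcription factor gene, had a log2 fold change of -0.27 (adjusted p = 0.18, limma).

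Of 16 PPM substrates and partners, 15 were listed and 1 was called, against 1.22% of all genes. The genotypes did not overlap in 4 of the 15, all higher in mutants, against 15.0% of all genes and 30.6% of the more abundant genes. Not all of the 15 are that abundant, *Arhgef6* for example having means of 32.4 CPM in mutants and 20.3 CPM in wild types. The called gene was *Camk4*, a nuclear calcium/calmodulin-dependent kinase and a POPX substrate. *Camk4* had 97.2, 99.3, and 73.2 CPM in Phf21bΔ4/Δ4 replicates 2, 3, and 6 and 52.7, 39.0, and 48.2 CPM in Phf21b+/+ replicates 5, 7, and 8. Without overlap, it rose with a log2 fold change of 0.95 ± 0.16 (SE, adjusted p = 0.081, limma). The others of the 4, named after their values were seen, were *Pak1* (log2 fold change 0.37, adjusted p = 0.17, limma), a p21-activated kinase gene, and the PIX exchange factor genes *Arhgef6* (0.65, adjusted p = 0.14) and *Arhgef7* (0.34, adjusted p = 0.20), which bring POPX and PAK proteins together. Of the 18 subunits of the PP1, PP2A, PP4, PP5, and PP6 phosphatases, 0 were called by limma (1.22% of all genes) or by voom. An unadjusted p under 0.05 was found for 2 (23.6% of all genes). These were *Ppp2r2b*, a brain-enriched regulatory subunit of PP2A, at 139 ± 27.4 CPM in mutants against 79.7 ± 8.76 CPM in wild types (SD, n = 3 each, adjusted p = 0.12, limma), and the scaffold subunit gene *Ppp2r1a* (log2 fold change 0.35, adjusted p = 0.15, limma). *Ppp2r5a*, another regulatory subunit gene, came next, with a log2 fold change of 0.16 (adjusted p = 0.23, limma). The median log2 fold change of the 18 was 0.11, against -0.02 over all genes and 0.11 over the genes whose mean log2 CPM was 6 or more. Not all of the 18 reach that level, *Ppp2r1b* for example having means of 11.3 CPM in mutants and 12.2 CPM in wild types.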

How the data were processed

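RNA-Seq values of 6 hippocampi, 1 library per mouse, were analysed. Per the paper's methods and the processing notes of the submitters, the authors trimmed single-end reads with Trimmomatic 0.39, mapped them with STAR 2.7.3a to GRCm38 and summarized them with featureCounts of Subread 1.6.4. Genes were kept where 2 or more libraries reached a CPM of 1, and edgeR scaled the libraries. Deposited by the authors were log2 CPM values, with a prior count and a strand setting that are not given in the sources used here. The lowest value stood for 0 reads, and 100.0% of values came out as whole reads (tolerance 0.1), from which depth and CPM were computed. The genes had to be listed under their symbols, and lengths, positions, and overlaps come from GENCODE M21 (GRCm38), which held 98.8% of the symbols. Levels per kb use merged exonic length.

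The genotypes were compared with limma 3.58.1 in R 4.3.3 (lmFit and eBayes with a mean-dependent prior variance, 2-sided, no covariate), with Benjamini-Hochberg adjustment across the 14477 genes. The paper's test was edgeR on counts. Here limma was used because the deposited unit is log2 CPM, recovered reads entered only the voom alternative, and the paper's thresholds were kept. Single ratios and sums were tested by exact permutation over the 20 divisions of 6 mice. Numbered samples were read as separate mice, which the labels do not state outright, so p-values measure the spread between these samples. No batch is labelled, and the interval of each log2 fold change is the 95% interval of limma. The test was checked on simulated data. The members and gene lists were chosen with earlier results of these data known. Named genes are the 9 members, *Phf21b*, the 5 genes nearest to *Ppm1e*, and in each pathway list the called genes, or the 3 with the smallest p where none was called, except that some are not reported here. Alternatives were a single prior variance, robust empirical Bayes, arrayWeights, quantile normalization, centring on the median, log2(CPM + 1), only genes whose mean log2 CPM was 1 or more, limma voom on recovered reads, loess (span 0.3) on exonic length or transcript GC, an FDR under 0.05, and each mouse left out. Tables were handled in Python 3.11.15 with SciPy 1.17.1, NumPy 2.4.6, and pandas 2.3.3, and plots were drawn with matplotlib 3.10.9.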

Additional observations from a re-analysis of the deposited data

How the results depend on the processing

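The number of genes called (176 of all listed) depended on the setting. It was 75 with a single prior variance, 3549 with arrayWeights, 101 among genes whose mean log2 CPM was 1 or more, 330 after loess on exonic length, 546 after loess on transcript GC, 25 at an FDR under 0.05, and between 9 (without Phf21b+/+ replicate 8) and 2830 (without Phf21bΔ4/Δ4 replicate 6) with 1 mouse left out. It was 2066 without Phf21bΔ4/Δ4 replicate 6 and Phf21b+/+ replicate 7, an alternative chosen after the data were seen. Of the 176 calls 80 were higher in mutants, of the 546 calls 403, and of the 330 calls 210. The count of members called, 1, became 0 with a single prior variance, after quantile normalization, and at an FDR under 0.05, and it ranged from 0 to 1 with 1 mouse left out. Members whose genotypes did not overlap numbered 4, became 1 (*Ppm1e*) after quantile normalization, and numbered 4 to 6 with 1 mouse left out. Without mutant replicate 6, 1 of them was *Ppp3ca*, lower in mutants. Fewer mice make such separation easier to reach, and the share of all genes in these settings is not given, so these counts do not show stability. The summed catalytic subunits (difference of log2 sums -0.05) turned to 0.044 after loess on GC and ranged from -0.33 to 0.17 with 1 mouse left out, and it was -0.38 without both of those mice. The sign also turned for *Ppm1a* (-0.065) and *Ppp3r1* (-0.032) after quantile normalization, for *Ppp3ca* (0.14) without mutant replicate 3 (range -0.45 to 0.14 with 1 mouse left out, -0.51 without both), and for *Ppm1f* with arrayWeights (0.13), after loess on GC (0.011), without mutant replicate 6 (0.027) or wild-type replicate 7 (0.017; range -0.19 to 0.027), and without both (0.13). The cause was not tested. *Ppm1e* kept its direction under all 18 alternatives and its call under 11. *Ppm1b*, *Ppm1h*, *Ppm1l*, and *Ppp3cb* kept their direction under all 18, with no call, but quantile normalization lowered them to 0.069, 0.12, 0.22, and 0.079. A single prior variance, robust empirical Bayes, the limit on mean log2 CPM, and an FDR under 0.05 leave each log2 fold change unchanged. Direction was fixed in advance under these settings. The ratio of *Ppp3ca* to *Ppp3cb* and that of *Ppm1e* to *Ppm1f* kept their direction under the alternatives run, from -0.18 to -0.72 for the former and from 0.50 to 0.87 for the latter. No paired analysis was possible because the labels give neither litters nor pairs of mice. Any litters shared between the genotypes were thus not accounted for. The small number of mice keeps the p of any exact permutation test at 0.1 or above.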
